A study of Mus musculus with 22 samples.

Results

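The genes of interleukin-6 (IL-6) signaling were followed from the receptor to the feedback inhibitors in RNA from whole mouse testes. The genes were chosen by name, with earlier results of these data known. They were the receptor subunits *Il6ra* and *Il6st*, the Janus kinase (JAK) genes *Jak1*, *Jak2*, *Jak3* and *Tyk2*, the transcription factor genes *Stat3* and *Stat5a*, and the inhibitor genes *Socs1* and *Socs3*. All 10 had a row among the 17931 gene symbols of the count table, and all 10 passed the filter on low counts.

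The study asked how loss of MLX, a basic helix-loop-helix leucine zipper transcription factor of the MYC and MAX network, alters the RNA of the testes. The libraries, 3 per genotype, were made from untreated males aged 7 months. Each MLX KO male was matched with a WT littermate of its age, and the pairs were numbered 1 to 3, which gives libraries WT1 to WT3 and KO1 to KO3. MLX KO males carried a constitutive deletion of the *Mlx* region that encodes the DNA-binding and dimerization domain, made in 129S4 embryonic stem cells and deleted with Meox2-Cre, which was then crossed out. The deletion was whole-body, so every cell type of the testis and every other organ lacked the intact gene. WT males were breeders of known fertility with the undeleted gene, and no transgene is named that both genotypes carried. The study describes 2 independent lines, and the labels do not state which one each male came from. The *Mlx* row held 128, 96 and 98 counts in the WT libraries against 94, 109 and 102 in those of MLX KO (log2 fold change -0.18, SE 0.14, edgeR adjusted p = 0.326), and this row also counts the exons left in place, so it does not check the genotype labels.

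IL-6 binds its own receptor subunit, IL6RA, and the pair then joins the signaling subunit gp130, the product of *Il6st*. Related cytokines such as LIF, oncostatin M and IL-11 use gp130 with other partners. JAKs bound to these receptors phosphorylate STAT proteins, which enter the nucleus and bind DNA, and STAT3 is the main STAT downstream of gp130. Among its induced genes is *Socs3*, whose product binds gp130 and the JAKs and ends the signal. In the testis, gp130 cytokines are known to act on Sertoli cells, Leydig cells and the early germ cells. RNA levels do not report the phosphorylation of STAT3, which was not measured in these libraries.

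A pair of short DNA motifs was looked for in the 250 bases upstream of start sites taken from a RefSeq table on GRCm38.p6 (mm10), which gave 11 windows for the 10 genes. The table does not hold every start site: the annotated genes *Jak1*, *Tyk2*, *Stat3*, *Stat5a* and *Socs3* extend further upstream than the start sites used, and those outer starts were not searched. They were the E-box CACGTG, the core site of the MAX and MLX dimers, and TTCNNNGAA, the core of STAT sites. Both strands were searched, each motif reads the same on either strand, and no matches overlapped. Within these windows *Il6ra* had the only E-box, starting 24 bases upstream of the start site used, and *Socs3* had the only STAT motif, starting 154 bases upstream. The E-box was present in 6.02% of all 32851 windows and TTCNNNGAA in 7.02%. The *Il6ra* window, at chr3:89913197-89913446 on the minus strand, and the stretch around the *Socs3* match, at chr11:117969502-117969530 on the minus strand, are shown 5′ to 3′ with the motif in capitals. They are shown because they hold the only matches among the 11 windows, upstream of a receptor gene and of an inhibitor gene.
Il6ra: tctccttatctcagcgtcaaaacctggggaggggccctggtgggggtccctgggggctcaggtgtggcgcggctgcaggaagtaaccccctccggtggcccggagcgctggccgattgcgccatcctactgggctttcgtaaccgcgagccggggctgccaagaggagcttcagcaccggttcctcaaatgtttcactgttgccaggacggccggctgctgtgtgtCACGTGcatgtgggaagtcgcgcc
Socs3: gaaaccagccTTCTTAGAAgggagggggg
The whole *Socs3* window also lies within an exon of another annotated transcript, and the *Il6ra* window lies within none. A match in letters is not a measured binding site.

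Of the 10 genes, 7 were higher in MLX KO testes, 0 were lower and 3 did not pass the test. The genes that rose were *Il6ra*, *Il6st*, *Jak1*, *Jak2*, *Jak3*, *Stat3* and *Socs3*, by 1.51-fold to 3.97-fold, and those that did not pass were *Tyk2*, *Stat5a* and *Socs1*. Among all 14640 genes tested, 45.4% passed in either direction, 24.8% as higher and 20.6% as lower, at an adjusted p under 0.05 (edgeR, quasi-likelihood test, adjusted by Benjamini-Hochberg). With the littermate pair as a blocking term, 46.1% of all genes were called in edgeR and 31.4% in DESeq2. The median log2 fold change (LFC, MLX KO relative to WT) was 0.61 over the 10 genes and 0.03 over all genes tested. The CPM values (counts scaled to a common total with library size and TMM factor) of the genotypes did not overlap for 7 of the 10, against 56.2% of all genes tested, 30.3% with MLX KO above WT and 25.9% below. In sum the 10 genes made up 170 to 175 CPM in WT and 239 to 279 CPM in MLX KO libraries.

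The scaling sets the reference for these differences. With library size alone, the median LFC of all genes was 0.16 instead of 0.03, and 45.2% of genes were called, 36.5% as higher and 8.66% as lower. Under that scaling the same 7 genes were called and the other 3 were not. The libraries held 16674678 to 19742726 counts, and KO1 differed more from KO2 and KO3 than any other libraries of 1 genotype did (chi-square per degree of freedom 8.26 and 8.25, against 2.73 to 4.27). KO1 was the lowest of the MLX KO libraries for 7 of the 10 genes. Among the MLX KO libraries it was also the lowest for each Leydig cell marker and the highest for each elongating spermatid marker listed below. The share of all genes tested that were lowest in KO1 was not computed, so the 7 genes are not shown to stand apart. In RNA from whole organs, fewer cells of a type and less RNA per cell cannot be told apart.

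**Figure D1:**
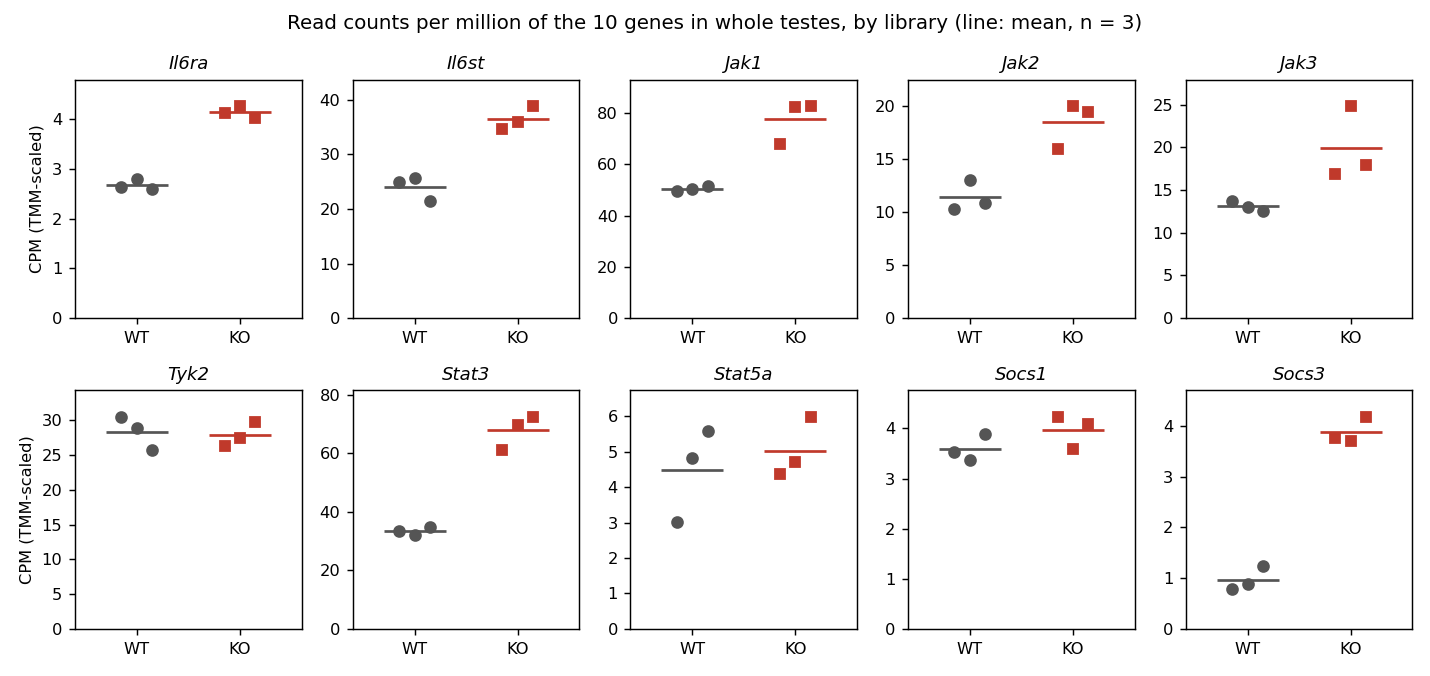
CPM of the 10 genes in each library, 1 panel per gene with its own axis from 0; circles are WT and squares MLX KO, replicates 1 to 3 from left to right, and lines are means (n = 3). All MLX KO squares lie above all WT circles for 7 genes, and the genotypes overlap for *Tyk2*, *Stat5a* and *Socs1*.

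Marker genes of the somatic cells of the testis moved with the genotype, and their part in the results was not tested. All 6 Leydig cell markers were higher, with a summed level of 735 to 756 CPM in WT and 1660 to 2120 in MLX KO libraries, and all 8 Sertoli cell markers were higher, at 916 to 961 against 1410 to 1720 CPM. Of the 5 endothelial markers, 3 were higher, at 14.4 to 18.4 against 28.9 to 34.0 CPM in sum. *Kdr* held the largest part of this rise, from 2.38 to 9.77 CPM on average, and *Pecam1* and *Tek* did not pass the test. Of the 4 peritubular myoid markers 3 were higher, at 66.2 to 81.2 against 99.6 to 109 CPM. All 6 markers of elongating spermatids were lower, at 17200 to 18100 against 9820 to 12100 CPM, levels that mark the tissue as testis. Of the spermatogonium markers, 2 of 6 were higher, and of the spermatocyte markers, 3 of 5 were lower. Among 9 macrophage markers, 8 were higher and 1 was lower, with a median LFC of 1.28. Their summed level of 424 to 445 CPM in WT and 385 to 423 CPM in MLX KO was made up mostly of *Aif1*, the gene that was lower, which had 7229, 6019 and 6487 counts in the WT libraries against 6281, 5239 and 5352 in those of MLX KO. Of 8 T and NK cell markers, 4 had enough counts for a test and 0 passed, with a summed level of 4.83 to 7.10 against 5.31 to 10.1 CPM. The 1 B cell marker tested did not pass. Of the neutrophil markers, *Mpo*, the only one tested, was lower, with 86, 69 and 53 counts in the WT libraries against 13, 28 and 21 in those of MLX KO (LFC -1.84, edgeR adjusted p = 0.000459). *S100a8* had 0, 0 and 0 counts against 1, 0 and 0, and *S100a9* had 0, 0 and 1 against 0, 0 and 6.

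Both receptor subunits were higher in MLX KO testes by about the same amount. *Il6ra* (chr3:89869324-89913196, minus strand), which encodes the subunit that binds IL-6, had 50, 44 and 46 counts in WT1, WT2 and WT3 and 80, 77 and 76 in KO1, KO2 and KO3. All 3 MLX KO libraries were above all WT libraries, in a narrow range on both sides. The mean level was 2.68 ± 0.108 CPM (SD, n = 3) in WT and 4.14 ± 0.118 CPM (SD, n = 3) in MLX KO testes, 1.55-fold higher (LFC 0.63, SE 0.15, edgeR adjusted p = 0.00671). In DESeq2 with the littermate pair blocked, its adjusted p was 0.146 at an LFC of 0.60, the only one of the 7 calls lost in any alternative. The ratio of CPM within the pairs was 1.57, 1.52 and 1.55. An antisense gene, *Gm46811*, shares 273 bp with its exons, and whether counting used strand is not stated.

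*Il6st* (chr13:112464070-112506860, plus strand) encodes gp130, the signaling subunit that all cytokines of the family share. Its counts were 475, 403 and 382 in the WT libraries against 672, 649 and 732 in those of MLX KO. The genotypes did not overlap, and WT3 was the lowest library and KO3 the highest. Its level was 24.1 ± 2.21 CPM in WT and 36.4 ± 2.10 CPM in MLX KO testes (SD, n = 3), a 1.51-fold difference (95% interval 1.34 to 1.71; LFC 0.60, SE 0.08, edgeR adjusted p = 0.000214).

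Of the 4 JAK genes, 3 rose, and *Tyk2* did not pass the test. *Jak1* (chr4:101151974-101265282, minus strand), the kinase that gp130 signaling chiefly depends on, had 941, 791 and 917 counts in the WT libraries against 1315, 1487 and 1563 in those of MLX KO. WT libraries were close together, and KO1 lay below KO2 and KO3 but above every WT library. The fold was 1.54 (95% interval 1.37 to 1.72; LFC 0.62, SE 0.07, edgeR adjusted p = 9.98e-05). The 3′ end of *Jak1* shares 397 bp, 6.7% of its exon length, with *Raver2* on the other strand.

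*Jak2* (chr19:29251803-29313095, plus strand) is used by gp130 and by the receptors of hormones such as prolactin and growth hormone. It had 195, 205 and 193 counts in the WT libraries against 310, 361 and 369 in those of MLX KO, so that the lowest MLX KO library stood above the highest WT library. The LFC of 0.70 (SE 0.12, 1.63-fold, edgeR adjusted p = 0.00077) was the largest of the JAK genes. The intervals of the 3 JAK genes that rose overlapped, with 1.37 to 1.72 for *Jak1*, 1.36 to 1.95 for *Jak2* and 1.23 to 1.86 for *Jak3*.

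*Jak3* (chr8:71676383-71690577, plus strand) works with the common gamma chain of lymphoid cytokine receptors and is best known from lymphocytes. It had 259, 205 and 223 counts in the WT libraries against 327, 449 and 338 in those of MLX KO. The WT libraries were close together, KO2 stood well above KO1 and KO3, and the genotypes did not overlap. The difference was 1.51-fold (LFC 0.60, SE 0.14, edgeR adjusted p = 0.00435), and without KO2 the LFC was 0.41 with an adjusted p of 0.00873. *Jak3* shares 406 bp, 9.9% of its exon length, with *Insl3* on the same strand. *Insl3*, the Leydig cell hormone gene, had 4009, 3488 and 4268 counts in the WT libraries against 14824, 17321 and 15982 in those of MLX KO (LFC 1.93, edgeR adjusted p = 1.94e-07), and it was highest in KO2, as *Jak3* was. Reads from the shared bases can be assigned to either gene, so the *Jak3* counts are uncertain, and the share of them that came from *Insl3* was not tested. The gene of the common gamma chain, *Il2rg*, had too few reads for a test, with 7, 3 and 3 counts in the WT libraries against 32, 6 and 7 in those of MLX KO.

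*Tyk2* (chr9:21104068-21131393, minus strand), the kinase of the interferon alpha and IL-10 receptors that also binds gp130, had 578, 454 and 456 counts in the WT libraries against 509, 498 and 562 in those of MLX KO. The MLX KO values lay inside the WT range, and 1 of 3 pairs was higher. Its fold was 0.982 with a 95% interval from 0.866 to 1.11 (LFC -0.03, SE 0.08, edgeR adjusted p = 0.816), and the sign of the LFC changed with library size alone and without WT1 or KO1.

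*Stat3* rose 2.03-fold, the largest change among the 10 genes after that of *Socs3*. It lies at chr11:100886806-100939594 on the minus strand and encodes the transcription factor that carries the gp130 signal to DNA. Its counts were 634, 504 and 616 in the WT libraries against 1186, 1262 and 1368 in those of MLX KO. The genotypes were far apart, and the lowest MLX KO library, KO1 at 61.2 CPM, stood above the highest WT library, WT3 at 34.7 CPM. The level was 33.4 ± 1.34 CPM in WT and 67.8 ± 5.88 CPM in MLX KO testes (SD, n = 3), at an LFC of 1.02 (SE 0.07, edgeR adjusted p = 3.91e-06), and 5.57% of all genes tested had a larger LFC. An antisense gene, *Gm46295*, shares 339 bp with its exons.

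*Stat5a* (chr11:100859351-100885169, plus strand), a STAT of prolactin, growth hormone and cytokine receptors, did not pass the test. It had 57, 76 and 99 counts in the WT libraries against 85, 85 and 113 in those of MLX KO, and the widest spread among WT libraries of the 10 genes relative to its level, WT1 being the lowest of all 6. The fold was 1.13 with a 95% interval from 0.808 to 1.57 (edgeR adjusted p = 0.544), which includes the folds of *Jak1* and *Jak3*. Without WT1 the LFC was -0.06 instead of 0.17.

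*Stat3*, *Stat5a* and *Stat5b* lie side by side on chromosome 11, at 147.1 kb, 201.5 kb and 227.7 kb from *Mlx*. *Socs3* is on the same chromosome, 16873.9 kb away. Of the 24 genes tested within 250 kb of *Mlx*, 7 were higher and 3 lower, or 41.7%, against 45.4% of all genes tested. Their median LFC was 0.16, and 4 of them were called with an LFC above 1 or below -1. The 24 genes include *Stat3*, *Stat5a* and *Stat5b*, and *Stat3* and *Stat5b* are among those 4. Of all genes tested, 5.57% had a larger LFC than *Stat3* and 5.94% a larger one than *Irf1* at 0.99. At the other end, 99.2% had a larger LFC than *Tnp2* at -0.82. Changes beyond 1 or -1 thus made up a larger share of the 24 genes than of all genes tested. For genes this close to the deletion, an effect of the altered locus on its neighbors and an effect of the loss of MLX cannot be told apart.

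Of the inhibitor genes, *Socs3* rose and *Socs1* did not pass the test. *Socs3* (chr11:117966079-117970336, minus strand), the STAT3-induced inhibitor of gp130, had 15, 14 and 22 counts in the WT libraries against 73, 67 and 79 in those of MLX KO. The lowest ratio of CPM within a pair was 3.37, in pair 3, and the ranges were well apart. Its level was 0.974 ± 0.236 CPM in WT and 3.88 ± 0.259 CPM in MLX KO testes (SD, n = 3), 3.97-fold higher with a 95% interval from 2.84 to 5.55 (LFC 1.99, SE 0.22, edgeR adjusted p = 5.8e-05). Among all genes tested, 0.56% had a larger LFC. Its standard error was the largest among the 7 genes that rose, at counts between 14 and 79.

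*Socs1* (chr16:10783808-10785536, minus strand), which binds the JAKs directly and is best known as an inhibitor of interferon signaling, had 67, 53 and 69 counts in the WT libraries against 82, 65 and 77 in those of MLX KO. The pairs were each higher, by 1.20, 1.07 and 1.05, but the genotypes overlapped. Its fold of 1.10 had a 95% interval from 0.871 to 1.40 (LFC 0.14, SE 0.16, edgeR adjusted p = 0.487). The upper bound of this interval was below the lower bound of 2.84 for *Socs3*.

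**Figure D2:**
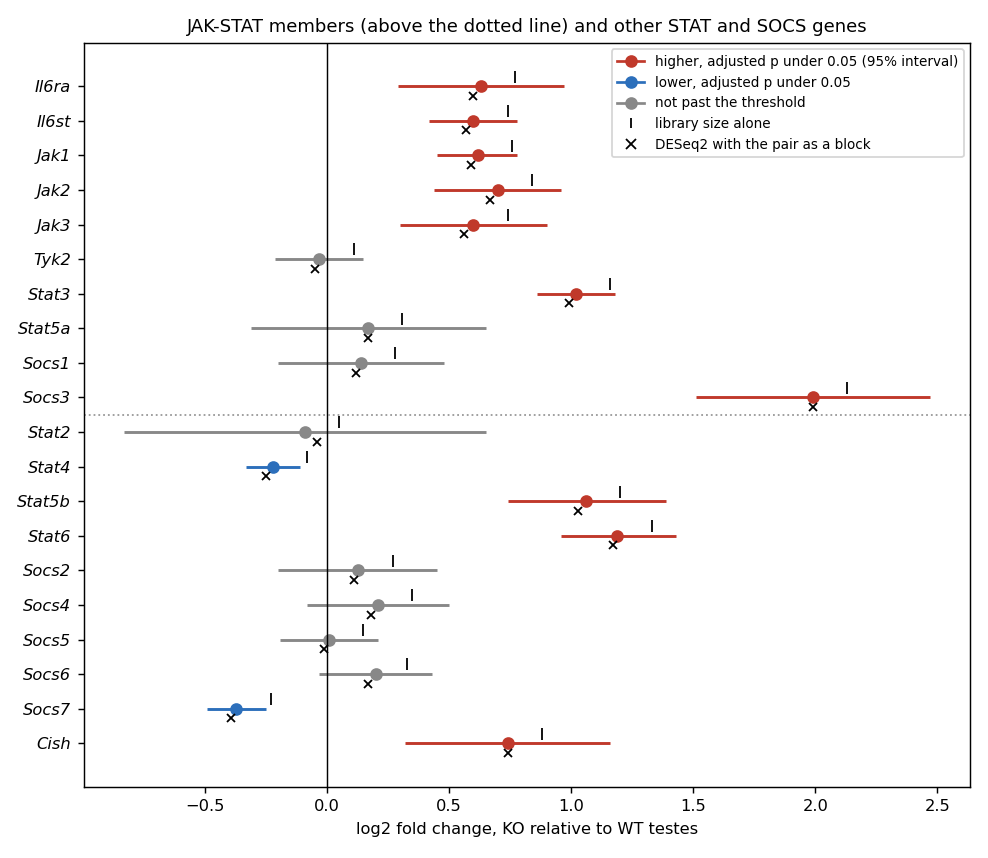
Log2 fold change of MLX KO relative to WT testes with 95% intervals (edgeR, n = 3 per genotype) for the 10 genes, above the dotted line, and for other STAT and SOCS genes, below it; ticks mark the value with library size alone and crosses that of DESeq2 with the pair blocked. *Socs3* lies farthest to the right at 1.99, followed by *Stat6*, *Stat5b* and *Stat3* between 1.02 and 1.19.

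Levels of different genes were compared as RPKM (CPM per kilobase of exon). In WT testes *Jak1* was the most abundant of the 10 at 8.59 ± 0.182 RPKM, followed by *Stat3* at 7.30 ± 0.294, *Tyk2* at 5.12 ± 0.437 and *Il6st* at 4.41 ± 0.405 RPKM (SD, n = 3). The libraries of *Tyk2* and *Il6st* overlapped, as did those of *Jak2*, *Stat5a* and *Il6ra* next to each other lower in the order, and *Socs3* was the lowest at 0.270 ± 0.0655 RPKM. In MLX KO testes *Stat3* stood first at 14.8 ± 1.29 RPKM and overlapped *Jak1* at 13.2 ± 1.44 RPKM, and *Socs3* was level with *Stat5a* at 1.08 ± 0.0719 and 1.10 ± 0.184 RPKM (SD, n = 3). The libraries of *Tyk2* and *Jak3* and those of *Il6ra* and *Stat5a*, neighbors in this order, overlapped as well.

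Ratios of RPKM within each library are given as a description, without a test. *Stat3* was below *Jak1* in every WT library, at 0.867, 0.820 and 0.863 of its RPKM, and above it in every MLX KO library, at 1.17, 1.09 and 1.12. *Socs1* exceeded *Socs3* by 12.1, 10.2 and 8.43 times in WT and by 3.04, 2.60 and 2.62 times in MLX KO libraries. *Socs3* relative to *Stat3* was 0.0300, 0.0352 and 0.0453 in the WT libraries against 0.0776, 0.0673 and 0.0734 in those of MLX KO. These 3 ratios did not overlap between the genotypes. *Il6ra* was the scarcer receptor subunit in both, at 0.792 ± 0.0319 RPKM against 4.41 ± 0.405 for *Il6st* in WT and at 1.22 ± 0.0351 against 6.68 ± 0.384 in MLX KO testes (SD, n = 3).

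**Figure D3:**
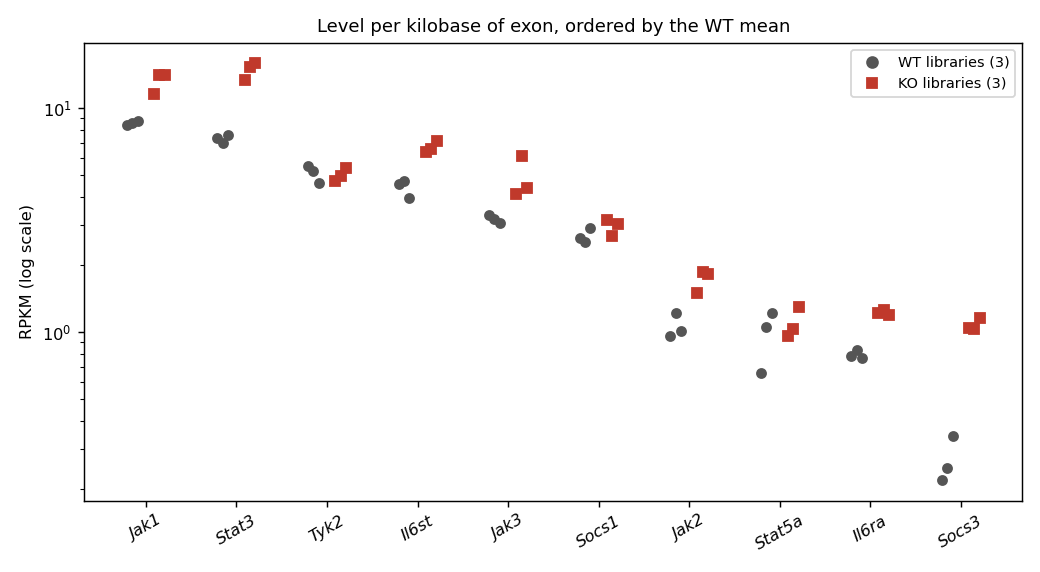
RPKM of the 10 genes by library, on a log axis, in the order of their WT means; circles are WT and squares MLX KO. *Socs3* moves from 0.270 to 1.08 RPKM on average, while *Tyk2*, *Stat5a* and *Socs1* overlap between the genotypes.

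Cytokine genes of the gp130 family were mostly near the floor. Of 11 listed, 4 had enough counts for a test, and *Lif* was the one that rose. *Il6* itself had 0, 0 and 1 counts in the WT libraries against 0, 0 and 2 in those of MLX KO, under the floor of 3 counts in every library, so no difference was detectable at this depth. *Lif*, the leukemia inhibitory factor, had 7, 6 and 6 counts in the WT libraries against 18, 20 and 22 in those of MLX KO, 2.90-fold higher with no overlap between the genotypes (LFC 1.54, SE 0.32, edgeR adjusted p = 0.00245). In DESeq2 with the pair blocked, the adjusted p of *Lif* was 0.0902.

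The other receptor genes listed with the gp130 family were mostly higher, with 3 of 5 tested rising and 0 falling and a median LFC of 0.57. *Cntfr* and *Il31ra* did not pass the test. *Lifr*, which pairs with gp130 for LIF, had 463, 366 and 472 counts in the WT libraries against 958, 796 and 827 in those of MLX KO (LFC 0.88, SE 0.08, edgeR adjusted p = 1.23e-05). *Osmr*, the oncostatin M partner, had 60, 56 and 86 against 120, 105 and 142 counts (LFC 0.75, SE 0.18, edgeR adjusted p = 0.00576). No library overlapped between the genotypes for either gene. *Il11ra1* was the other receptor that rose (LFC 0.57, edgeR adjusted p = 0.0103), and its reads can be shared with near-identical copies.

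Among 22 other receptors that signal through JAKs, 17 were tested, 10 were higher, 1 was lower and the median LFC was 0.38. *Il13ra1*, a chain of the IL-4 and IL-13 receptor, rose from 60, 45 and 52 to 186, 219 and 244 counts (LFC 1.94, SE 0.15, edgeR adjusted p = 6.99e-06). *Csf2rb*, the shared chain of the GM-CSF and IL-3 receptors, rose from 12, 12 and 24 to 57, 47 and 90 counts (LFC 1.90, SE 0.33, edgeR adjusted p = 0.000876). Of the 9 macrophage markers given above, 8 were higher and 1 was lower, and their part in this rise was not tested. *Il3ra* was lower, at 352, 332 and 324 against 419, 390 and 425 counts (LFC -0.40, edgeR adjusted p = 0.00189).

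Other STAT genes did not move as one group: *Stat6* and *Stat5b* rose, *Stat4* fell and *Stat2* did not pass the test. *Stat6*, the STAT of IL-4 and IL-13, had 111, 89 and 110 counts in the WT libraries against 251, 264 and 247 in those of MLX KO (LFC 1.19, SE 0.11, edgeR adjusted p = 1.68e-05). *Stat5b*, the near copy of *Stat5a*, had 63, 56 and 59 against 122, 147 and 130 counts (LFC 1.06, SE 0.15, edgeR adjusted p = 0.000249). Reads from the stretches that the *Stat5* genes share can be assigned to either.

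*Stat4*, at 200 ± 3.64 RPKM in WT and 171 ± 7.24 RPKM in MLX KO testes (SD, n = 3), was the most abundant STAT and the one that fell. It had 12361, 10088 and 11144 counts in the WT libraries against 11095, 9909 and 9934 in those of MLX KO, and its RPKM was 27.8, 28.5 and 25.8 times that of *Stat3* in WT and 13.3, 11.2 and 10.4 times in MLX KO libraries. The difference (LFC -0.22, edgeR adjusted p = 0.00379) moved in the direction of the spermatid markers and was lost with library size alone, at -0.08 with an adjusted p of 0.0688. *Stat2*, which acts in the type I interferon response, had 126, 307 and 330 counts in the WT libraries against 189, 224 and 369 in those of MLX KO. Pair 1 was low in both genotypes, and the spread within WT was larger than the difference (LFC -0.09, SE 0.34, edgeR adjusted p = 0.843). The sign changed with library size alone and without WT2, WT3 or KO1, and 220 bp of *Stat2* are shared with *Apof*.

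Among the 6 other SOCS genes, *Cish* rose, *Socs7* fell and 4 did not pass the test. *Cish*, the STAT5-induced member, had 64, 37 and 39 counts in the WT libraries against 90, 84 and 76 in those of MLX KO (LFC 0.74, SE 0.19, edgeR adjusted p = 0.00889, and 0.0654 in DESeq2 with the pair blocked). *Socs7*, the most abundant of them at 54.4 ± 2.94 RPKM in WT and 42.1 ± 1.68 RPKM in MLX KO testes (SD, n = 3), had 7271, 6406 and 7575 against 6354, 5661 and 5721 counts (LFC -0.37, SE 0.05, edgeR adjusted p = 0.000365). The LFC was 0.13 for *Socs2* (adjusted p = 0.507), 0.21 for *Socs4* (adjusted p = 0.213), 0.01 for *Socs5* (adjusted p = 0.954) and 0.20 for *Socs6* (adjusted p = 0.149), all from edgeR. *Socs5* changed sign in 5 of 13 alternatives, and *Socs6* passed with library size alone (LFC 0.33, adjusted p = 0.0278).

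Of 10 genes for PIAS proteins, phosphatases and adaptors that limit or modify JAK-STAT signaling, 3 were higher and 4 lower, with a median LFC of -0.09. *Ptpn6*, the SHP-1 phosphatase gene of blood cells, rose from 21, 19 and 19 to 76, 45 and 44 counts and was highest in KO1 (LFC 1.37, SE 0.26, edgeR adjusted p = 0.00158). *Ptpn11*, the SHP-2 phosphatase gene whose product binds gp130, rose from 569, 449 and 610 to 736, 784 and 990 counts (LFC 0.52, SE 0.11, edgeR adjusted p = 0.00296). *Sh2b3*, an adaptor that restrains JAK2, was lower at 2236, 1303 and 2006 against 2443, 2222 and 2531 counts (LFC -0.49, edgeR adjusted p = 0.0104, and 0.071 in DESeq2 with the pair blocked). *Pias2* was lower too (LFC -0.24, edgeR adjusted p = 0.00354). Its level was 673 ± 11.2 CPM in WT and 571 ± 30.2 CPM in MLX KO testes (SD, n = 3).

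The list of known STAT3 target genes had the highest median LFC of the lists of related genes. Of 26 genes, 25 were tested, 18 were higher, 3 lower and 4 did not pass, with a median LFC of 1.13. *Timp1*, an inhibitor of metalloproteinases, had 3, 6 and 7 counts in the WT libraries against 184, 202 and 215 in those of MLX KO (LFC 5.10, SE 0.24, edgeR adjusted p = 2.56e-07). *Serpina3n*, an acute-phase protease inhibitor, had 32, 31 and 46 against 676, 915 and 992 counts (LFC 4.46, SE 0.20, edgeR adjusted p = 2.22e-07). The lowest ratio of CPM within a pair was 28.8 for *Timp1* and 20.2 for *Serpina3n*. Many of these genes also respond to other signals, and the list does not tell them apart. The list was chosen with earlier results of these data known, so its median and counts are a description, not a test.

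The target genes that fell were *Pim1*, *Birc5* and *Bcl2l1*. *Pim1*, a kinase gene, had 2181, 1877 and 2206 counts in the WT libraries against 1581, 1718 and 1416 in those of MLX KO (LFC -0.51, SE 0.08, edgeR adjusted p = 0.000377). *Birc5*, the survivin gene of dividing cells, stood at an LFC of -0.21 (edgeR adjusted p = 0.0176) and did not pass in 5 of 13 alternatives, among them library size alone (adjusted p = 0.339), DESeq2 with the pair blocked (adjusted p = 0.0626) and the fits without WT2, KO2 or KO3. *Myc*, *Ccnd1*, *Hp* and *A2m* did not pass the test.

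Over all 72 related genes tested, 39 were higher and 11 lower, or 69.4%, with a median LFC of 0.44, against 45.4% and 0.03 for all genes tested. With library size alone 42 were higher and 6 lower. The lists were chosen with earlier results of these data known, so these shares describe the lists and do not test for enrichment.

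**Figure D4:**
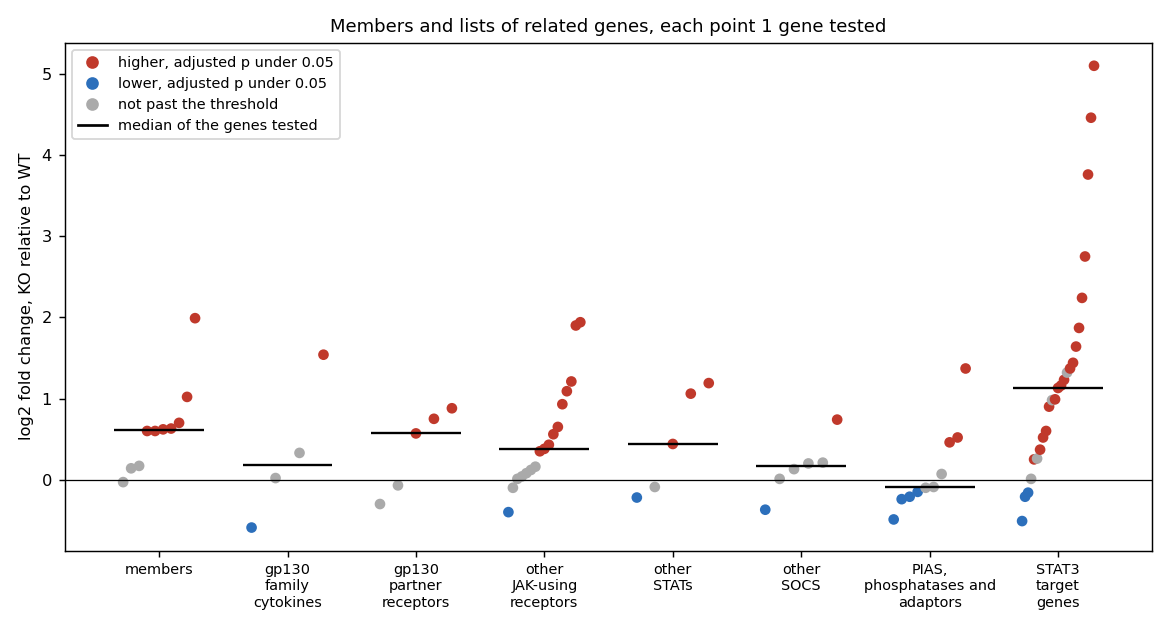
Log2 fold change of MLX KO relative to WT testes for each gene tested, by list (edgeR); red points were higher, blue points lower and grey points not past an adjusted p of 0.05, and bars are list medians. The 10 genes center on 0.61 and the STAT3 target genes on 1.13, while the list of PIAS proteins, phosphatases and adaptors centers on -0.09.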

How the data were processed

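RNA from whole testes was extracted with Trizol and sequenced as paired-end reads. The authors deposited raw counts of reads per gene symbol and library, made after alignment to mm10 with TopHat; the counting tool, the annotation and the use of strand are not given in the sources used here. Of 17933 rows, 2 were identical repeats and were used once. Columns with the authors' own comparison (fold changes and p-values) were not used, and neither were the ChIP-Seq samples.

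Counts were fitted with edgeR 4.0.16 in R 4.3.3: filterByExpr (minimum count 10), TMM, a quasi-likelihood test on genotype alone, and p-values adjusted by Benjamini-Hochberg over the 14640 genes tested. Tests are two-sided. CPM uses TMM-scaled library sizes, and RPKM uses merged RefSeq exon lengths (GRCm38.p6), found for 17893 of 17931 symbols (17245 by current and 648 by older symbol).

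The replicate numbers pair the libraries, per the labels and the study's account of littermate pairs. Deviations from group means correlated at 0.145, 0.0363 and 0.121 within pairs and at most at 0.033 otherwise. Centering within each genotype ties these values together, and pair 2 at 0.0363 was close to WT3 with KO2 at 0.033. They are therefore a description and not a test of the pairing. Alternatives were a replicate block for the pair (in edgeR, and in DESeq2 1.42.0), DESeq2 without it, DESeq2's size factors, library size alone, no filter, at least 1 CPM in 3 libraries, and each library left out. On simulated data edgeR recovered 200 of 200 genes changed 2-fold among 14561 and called 9 others. The changed genes were drawn from those above a minimum mean CPM, with a fixed dispersion and no pair effect. This recovery therefore does not cover genes of few counts, such as *Socs3* and *Il6ra*, or changes smaller than 2-fold.

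All 10 genes, the other STAT and SOCS genes and the 2 largest called changes in each direction per list are named; 2 genes that this rule names are not reported here, and a few others are given to complete a count. Genes and lists were chosen with earlier results of these data known.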

Additional observations from a re-analysis of the deposited data

How the results depend on the processing

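Of the 10 genes, 7 were called in 12 of 13 alternatives and 6 in DESeq2 with the littermate pair as a block, where *Il6ra* was lost. The block changed no other call among the 10 genes. Over all genes, 6743 passed in edgeR with the pair blocked and 4604 in DESeq2 with that block, against 6649 in edgeR without it, and over the related genes 39 to 51 passed across alternatives. In 130 refits of the 10 genes, 125 kept direction and call, and in 350 refits of 27 other named genes, 331 did. With the pair as a replicate block in DESeq2, *Cish*, *Lif*, *Sh2b3* and *Birc5* lost their calls, at log2 fold changes of 0.74, 1.52, -0.54 and -0.24. The log2 fold change of *Tyk2* became 0.11 with library size alone, 0.03 without WT1 and 0.02 without KO1 (range with a library left out -0.09 to 0.03), and that of *Stat5a* -0.06 without WT1 (range -0.06 to 0.37). *Stat2* became 0.05 with library size alone, 0.14 without WT2, 0.11 without WT3 and 0.12 without KO1 (range -0.46 to 0.14). *Socs5* became -0.02 in DESeq2 and with its size factors, -0.01 in DESeq2 with the pair blocked, -0.08 without WT1 and -0.01 without KO3 (range -0.08 to 0.08). None of these genes passed the test in any of these fits, and the cause was not tested. With 3 libraries per genotype, genes of few counts such as *Socs3*, *Socs1*, *Stat5a* and *Il6ra* have wide intervals.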

Other observations

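Some genes of lymphoid cells had their highest counts in KO1, and others did not. *Il2rb*, the IL-2 receptor beta chain, had 2, 2 and 8 counts in the WT libraries against 37, 8 and 6 in those of MLX KO, *Il2rg* had 7, 3 and 3 against 32, 6 and 7, and the T cell gene *Cd8a* had 4, 2 and 5 against 28, 2 and 4. *Il7r*, at 11, 3 and 14 counts in the MLX KO libraries, and *Cd3e*, at 7, 6 and 18, were highest in KO3, and *Cd3d* was highest in WT3, at 45 counts against 29 in KO1. All of these but *Cd3d* had too few counts to be tested, and they were chosen after their values were seen. *Jak3*, the kinase that works with the IL2RG chain, was highest in KO2.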
